A study of Mus musculus with 8 samples.

Results

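The Sox genes of the SoxB, SoxC and SoxE groups encode transcription factors of neural lineages, and 10 of them were followed here by gene name through a table of RNA-seq counts for 32567 mouse genes. They are Sox1, Sox2 and Sox3 of group SoxB1, Sox21 of group SoxB2, Sox4, Sox11 and Sox12 of group SoxC, and Sox8, Sox9 and Sox10 of group SoxE. The table holds 4 libraries, each the only library of its condition. They come from mouse embryonic stem cells (ESC) with wild-type huntingtin, from ESC labelled huntingtin-null Hdhex4/5/ex4/5 (homozygous for a targeted allele of the huntingtin gene Htt, called Htt-null here), and from the cells differentiated out of each line with retinoic acid (RA-DIFF). ESC were kept without feeders for 4 passages, grown as embryoid bodies for 8 days with 5 µM retinoic acid from day 4, dissociated, plated and collected 2 hours after plating. Each genotype was studied as a cell line in culture, so a difference between the genotypes is also a difference between those lines.

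All SOX proteins carry an HMG box, a domain that binds a short DNA motif and bends the helix, and they act together with partner proteins such as POU factors. SoxB1 proteins keep neural progenitors undifferentiated, and Sox2 is in addition a core factor of the pluripotent state, where it partners Oct4 (the product of Pou5f1). Sox21 counteracts SoxB1 proteins at shared targets. SoxC proteins act later, as progenitors leave the cell cycle and become neurons, while SoxE proteins act in glial cells, in the neural crest and, in the case of Sox9, in cartilage.

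The targeted gene was read first. Htt had 14385 counts in wild-type ESC and 7260 in Htt-null ESC, or 166 and 111 CPM (counts for every 1000000 in the library, with the library total scaled by TMM), which is 1.49-fold lower in the null line. In RA-DIFF the order was the other way round, with 8212 counts (73.3 CPM) in the library labelled wild type and 9722 (98.7 CPM) in that labelled Htt-null. Htt therefore goes against the labels of the RA-DIFF libraries, and so do the expression levels tabulated with the study, whose 2 RA-DIFF conditions each lie closest to the deposited library of the other label. The Htt counts cover the whole gene and not its targeted part alone, and Htt-null ESC still held 111 CPM, so they are a limited sign of genotype. The RA-DIFF libraries are named by their labels throughout, and every direction drawn between them turns round if these labels were exchanged. The libraries held 63617410 counts (Htt-null ESC), 87924678 (wild-type ESC), 100927951 (RA-DIFF labelled Htt-null) and 110569127 (RA-DIFF labelled wild type). With 1 library per condition there is no spread between replicates and no test. Intervals are 95% intervals of the counting error and hold nothing of the spread between cultures. A gene is said to be past the fold limit when its log2 ratio of CPM exceeds 0.75 in size and the mean of its log2 CPM in the 4 libraries exceeds 0. Folds are plain ratios of CPM, whereas log2 ratios carry a prior count of 2, which draws the ratios of low counts towards 0. The expression limit was passed by 14417 genes and by 9 of the 10 Sox genes. Sox10 did not pass it, and Sox8 and Sox9 passed it only through the RA-DIFF libraries.

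The 10 genes lie on 10 chromosomes (GRCm38). In the longest coding transcript of GENCODE vM21, the SoxB and SoxC genes have 1 exon, Sox8 and Sox9 have 3 and Sox10 has 5. Stretches of coding sequence are identical between members of a group, and the longest of these, written 5′ to 3′ along the coding strand, show how far a read of 50 bases can tell the genes apart.
Sox4 and Sox11 (chr13:28952749-28952796, minus strand, and chr12:27342166-27342213, minus strand): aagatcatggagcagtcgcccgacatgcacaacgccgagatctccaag
Sox1 and Sox3 (chr8:12396727-12396771, plus strand, and chrX:60892741-60892785, minus strand): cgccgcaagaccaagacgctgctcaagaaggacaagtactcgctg
Sox9 and Sox10 (chr11:112782831-112782874, plus strand, and chr15:79163430-79163473, minus strand): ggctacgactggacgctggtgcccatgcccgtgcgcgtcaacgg
These runs of 48, 45 and 44 bases are each shorter than a read, and no Sox gene of the set shares a stretch of 50 bases with another Sox gene. Overlap with genes of other kinds was found for 4 members. Sox21 overlaps the lincRNA Gm4675 on the opposite strand over 713 exonic bases (18.8% of its exons), and Sox8 overlaps 2810468N07Rik in the same way over 329 (10.6%). Sox4 overlaps Gm26735, a lincRNA on the opposite strand that has no entry in the table, over 2616 (54.6%), and Sox1 holds the 86 bases of the small gene Gm25239 on its own strand. The libraries were made by a strand-specific dUTP method, and for the counting the study names no strand setting beyond program defaults. Which strand the deposited counts hold was not tested, so counts of these genes and of their opposite partners may not be told apart over those bases.

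RefSeq promoter sequences (250 bases before to 50 after the gene's start, GRCm38.p6) were found for 7 of the 10 genes, namely Sox1, Sox2, Sox21, Sox4, Sox11, Sox12 and Sox8. These windows are set on RefSeq starts, which can differ from the GENCODE starts, so that most of the Sox1 window, octamer included, lies inside the GENCODE gene (start 12395295) and the Sox2 window ends before its gene (start 34650405). They were searched on both strands for the SOX motifs ACAAAG and ACAATG, for the octamer ATGCAAAT bound by POU factors, for the retinoic acid receptor motif AGGTCA, and for pairs of it spaced by 5 or 2 bases (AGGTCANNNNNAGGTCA and AGGTCANNAGGTCA). The octamer stood in the promoters of Sox1 and Sox12, against 1.74% of the 32851 promoters in the table. ACAAAG was found in the Sox2 promoter alone (18.7% of all promoters) and ACAATG in none of the 7 (12.6%). AGGTCA was found once each in the promoters of Sox2 and Sox4 (16.3%) and neither spaced pair in any (0.00913% each). Such matches are letters in a window and not sites of binding. The promoters of Sox1 and Sox12 are shown for the octamer and that of Sox2 for its SOX and receptor motifs, with the matches in capitals.
Sox1, chr8:12395269-12395568, plus strand: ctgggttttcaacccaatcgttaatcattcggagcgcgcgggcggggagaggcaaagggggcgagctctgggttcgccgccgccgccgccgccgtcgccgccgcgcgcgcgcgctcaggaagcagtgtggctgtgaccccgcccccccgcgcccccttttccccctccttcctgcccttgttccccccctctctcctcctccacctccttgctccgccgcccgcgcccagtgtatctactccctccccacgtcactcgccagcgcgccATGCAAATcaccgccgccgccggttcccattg
Sox12, chr2:152397997-152398296, minus strand: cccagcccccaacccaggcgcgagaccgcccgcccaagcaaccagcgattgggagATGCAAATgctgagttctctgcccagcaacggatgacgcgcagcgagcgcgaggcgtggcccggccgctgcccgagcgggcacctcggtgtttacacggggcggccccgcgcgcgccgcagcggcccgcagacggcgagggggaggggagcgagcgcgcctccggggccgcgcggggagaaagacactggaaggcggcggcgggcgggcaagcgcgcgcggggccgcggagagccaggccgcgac
Sox2, chr3:34649745-34650044, plus strand: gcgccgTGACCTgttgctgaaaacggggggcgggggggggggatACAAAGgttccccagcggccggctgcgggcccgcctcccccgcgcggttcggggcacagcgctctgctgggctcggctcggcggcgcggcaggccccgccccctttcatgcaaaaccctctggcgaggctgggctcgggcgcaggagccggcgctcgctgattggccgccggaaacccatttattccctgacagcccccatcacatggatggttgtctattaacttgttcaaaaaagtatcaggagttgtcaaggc
TGACCT at the start of the Sox2 promoter is AGGTCA read on the other strand. The GC content of the 3 promoters was 70.7% (Sox1), 76.7% (Sox12) and 66.3% (Sox2), against a median of 52.7% over all promoters. It was 52% for Sox4, 58.7% for Sox11, 65.7% for Sox21 and 66.3% for Sox8.

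What happened to these genes between ESC and RA-DIFF was the first comparison, made for each pair of libraries with the same label. Levels moved away from a state in which Sox2 made up most of the Sox transcripts towards one in which Sox11, Sox2, Sox1, Sox12, Sox21, Sox4 and Sox9 were all abundant. In the pair labelled wild type, 7 of the 9 Sox genes past the expression limit were past the fold limit on the higher side, where 32.4% of all 14417 genes were, and 1 on the lower side, where 24.9% were. In the pair labelled Htt-null the counts were again 7 and 1, against 32.9% and 23.5%. Because Sox8 and Sox9 passed the expression limit only where they were high, these counts describe the genes and support nothing further.

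**Figure D1:**
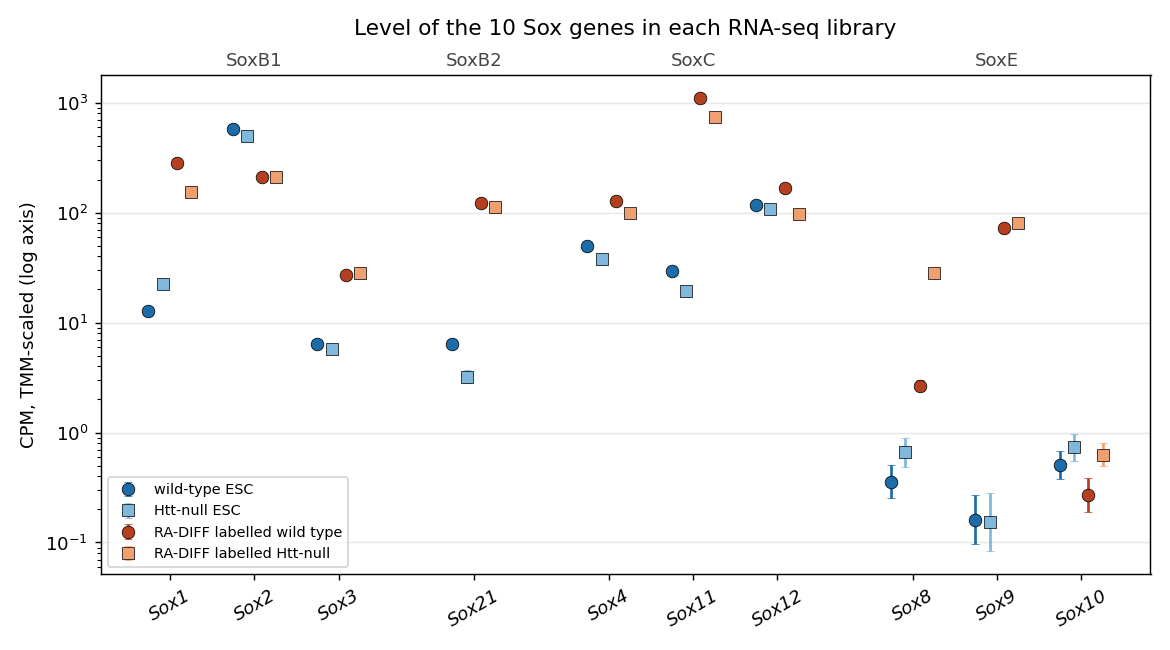
Level of each of the 10 Sox genes in the 4 RNA-seq libraries, as TMM-scaled CPM on a log axis, with genes set out by Sox group and bars giving the counting interval where it is wider than the symbol. Sox11 lies between 19.3 and 29.3 CPM in ESC and between 745 and 1109 in RA-DIFF, Sox9 goes from under 0.2 CPM to over 72, and Sox2 is the only gene with more than 10 CPM that is lower in both RA-DIFF libraries than in both ESC libraries.

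Among the SoxB1 genes, Sox2 ran against the other two. It had 50097 counts in wild-type ESC, 32320 in Htt-null ESC, 23879 in RA-DIFF labelled wild type and 20911 in RA-DIFF labelled Htt-null. The ESC values of 578 and 495 CPM stood above the RA-DIFF values of 213 and 212, which were nearly the same. Sox2 was 2.71-fold lower in RA-DIFF than in ESC in the pair labelled wild type (log2 ratio −1.44, interval −1.46 to −1.42) and 2.33-fold lower in the pair labelled Htt-null (−1.22, −1.25 to −1.20), a call that was lost under an exact test at a dispersion of 0.1. Sox1, a marker of committed neuroectoderm, had 1101 and 1453 counts in wild-type and Htt-null ESC and 31981 and 15194 in RA-DIFF with the same labels. That was 12.7 and 22.3 CPM against 285 and 154, so the 2 stages did not overlap. Sox1 was 22.5-fold higher in RA-DIFF in the pair labelled wild type (log2 ratio 4.49, 4.40 to 4.58) and 6.93-fold higher in the pair labelled Htt-null (2.79, 2.71 to 2.87). With the RA-DIFF labels exchanged, its log2 ratios were 3.60 and 3.68, so the gap between the pairs depends on the labels. Sox3, which overlaps Sox1 and Sox2 in function, had 550 and 376 counts in ESC and 3054 and 2780 in RA-DIFF, or 6.34 and 5.76 CPM against 27.3 and 28.2. Its log2 ratios of 2.10 (1.97 to 2.24) and 2.29 (2.14 to 2.45) amounted to 4.30-fold and 4.90-fold higher levels.

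Per length, in CPM per kilobase of exon, the share of Sox2 in the SoxB1 level was 98.0% in wild-type ESC and 97.0% in Htt-null ESC. It was 58.9% in RA-DIFF labelled wild type and 69.4% in RA-DIFF labelled Htt-null, where Sox1 took 33.6% and 21.5% and Sox3 7.50% and 9.19%. The level of the group as a whole was lower in RA-DIFF, at 176 and 149 CPM per kb against 287 and 248 in ESC. Sox2 stood 107-fold above Sox1 per length in wild-type ESC and 1.75-fold above it in RA-DIFF labelled wild type, and 52.3-fold and 3.23-fold in the libraries labelled Htt-null. Sox2ot, a long non-coding RNA within which Sox2 lies, took the opposite course to Sox2. It had 397 counts in wild-type and 174 in Htt-null ESC and 4415 and 4906 in RA-DIFF, and log2 ratios of 3.10 and 4.21. Sox2ot was named after its values were seen.

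Sox21, the SoxB2 gene that counteracts SoxB1 proteins, was barely present in ESC, with 559 counts in the wild type and 209 in the null line (6.45 and 3.20 CPM). It reached 13700 counts in RA-DIFF labelled wild type and 11189 in RA-DIFF labelled Htt-null (122 and 114 CPM). These values were 19.0-fold and 35.5-fold above ESC, with log2 ratios of 4.24 (4.12 to 4.37) and 5.14 (4.95 to 5.35). Per length, Sox2 stood 166-fold above Sox21 in wild-type ESC and 3.22-fold above it in RA-DIFF labelled wild type, and 286-fold and 3.45-fold in the libraries labelled Htt-null.

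The SoxC genes went separate ways. Sox11, which acts in young neurons, had 2542 counts in wild-type ESC, 1258 in Htt-null ESC, 124246 in RA-DIFF labelled wild type and 73357 in RA-DIFF labelled Htt-null. It was 37.8-fold higher in RA-DIFF in the pair labelled wild type (log2 ratio 5.24, 5.18 to 5.30) and 38.6-fold in the pair labelled Htt-null (5.27, 5.19 to 5.35), and these intervals overlapped. Sox4, with which it shares the run of 48 bases, was already at 49.4 and 38.0 CPM in ESC (4282 and 2478 counts) and reached 129 and 98.8 CPM in RA-DIFF (14442 and 9728 counts). The change was 2.61-fold and 2.60-fold (log2 1.38 in both pairs), again with overlapping intervals. The likeness of the pairs depends on the labels, since on their exchange the log2 ratios were 4.67 and 5.84 for Sox11 and 1.00 and 1.76 for Sox4. Sox12, the third SoxC gene, had 10206, 7039, 18797 and 9616 counts in the same order of libraries, or 118 and 108 CPM in ESC and 168 and 97.6 in RA-DIFF. Its log2 ratio was 0.51 (0.48 to 0.55) in the pair labelled wild type and −0.14 (−0.19 to −0.10) in the pair labelled Htt-null, both within the fold limit. With the RA-DIFF labels exchanged, Sox12 was lower than in ESC in the first pair (−0.27) and higher in the second (0.64).

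Per length the leading SoxC gene changed between the stages. Sox12 held 65.7% of the SoxC level in wild-type ESC and 70.3% in Htt-null ESC, where Sox11 held 8.76% and 6.73%. In RA-DIFF, Sox11 held 67.4% and 67.8%, Sox12 19.0% and 16.6%, and Sox4 13.6% and 15.6%. Sox11 thus stood 2.92-fold below Sox4 in wild-type ESC and 4.96-fold above it in RA-DIFF labelled wild type. The level of the SoxC group was 40.3 and 34.5 CPM per kb in ESC and 198 and 132 in RA-DIFF.

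SoxE transcripts were scarce in ESC. Sox9, which maintains neural stem cells and directs glial and cartilage fates, had 14 counts in wild-type and 10 in Htt-null ESC, or 0.161 and 0.153 CPM, with counting intervals of 0.0962 to 0.271 and 0.0833 to 0.282. In RA-DIFF it had 8098 counts in the library labelled wild type and 7930 in that labelled Htt-null (72.3 and 80.5 CPM). The CPM ratios, over 14 and 10 counts, were 448-fold and 525-fold. The log2 ratios with the prior count were 8.62 (8.06 to 9.68) and 8.84 (8.16 to 10.10), which correspond to 394-fold and 459-fold. Sox8, a SoxE gene of oligodendrocyte precursors, neural crest and gonads, had 31 and 43 counts in ESC, 300 in RA-DIFF labelled wild type and 2807 in RA-DIFF labelled Htt-null. It was 7.49-fold higher in RA-DIFF in the pair labelled wild type (log2 2.83, 2.37 to 3.49) and 43.2-fold higher in the pair labelled Htt-null (5.39, 5.00 to 5.90). Exchange of the RA-DIFF labels gave log2 ratios of 6.23 and 1.99, so which pair shows the larger rise depends on the labels. Sox10, the marker of neural crest derivatives and oligodendroglia, stayed low in every library, with 44, 48, 30 and 62 counts in wild-type ESC, Htt-null ESC, RA-DIFF labelled wild type and RA-DIFF labelled Htt-null. Those are 0.507, 0.736, 0.268 and 0.630 CPM, below the expression limit, so no call was made for it.

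**Figure D2:**
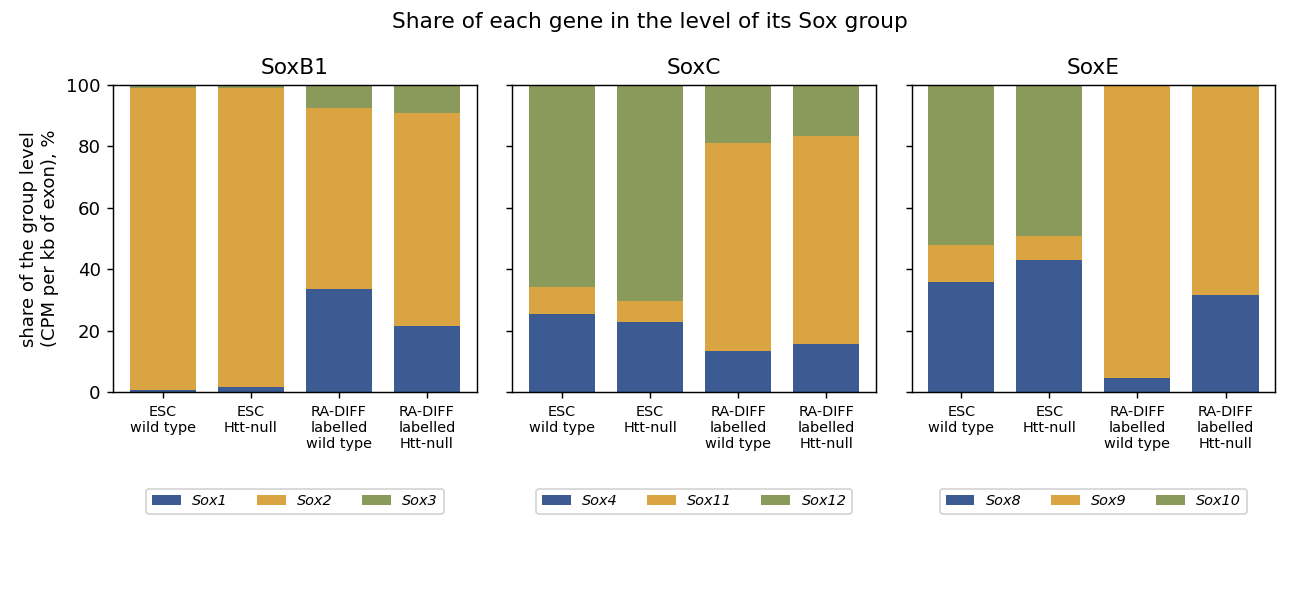
Share of each gene in the level of its Sox group, as a percentage of the summed CPM per kb of exon, for the 4 libraries in each of the 3 groups with more than 1 member. Sox2 fills the SoxB1 bars of ESC (98.0% and 97.0%) and gives up a part to Sox1 and Sox3 in RA-DIFF, Sox11 replaces Sox12 as the largest SoxC share, and Sox9 takes 94.9% and 67.6% of the SoxE level in RA-DIFF.

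Across all 10 genes the order of the levels per length was nearly the same in both ESC libraries. Sox2 came first with 281 CPM per kb in wild-type and 241 in Htt-null ESC, then Sox12 with 26.4 and 24.2 and Sox4 with 10.3 and 7.92. Below these, the order was Sox11 (3.53), Sox3 (3.07), Sox1 (2.63) and Sox21 (1.70) in wild-type ESC, and Sox1 (4.61), Sox3 (2.79), Sox11 (2.32) and Sox21 (0.843) in Htt-null ESC. Sox10, Sox8 and Sox9 came last in both, and the counting intervals of Sox10 and Sox8 overlapped. In RA-DIFF labelled wild type the order was Sox11 (133), Sox2 (104), Sox1 (59.1), Sox12 (37.7), Sox21 (32.2), Sox4 (26.9), Sox9 (17.5), Sox3 (13.2), Sox8 (0.859) and Sox10 (0.0877). In RA-DIFF labelled Htt-null, Sox2 (103) came before Sox11 (89.6) and Sox21 (29.9) before Sox12 (21.9), while Sox8 reached 9.14 and the remaining order was kept. Apart from Sox10 and Sox8 in ESC, no neighbours in these orders had overlapping counting intervals, but the spread between cultures is unknown, so the close neighbours Sox12, Sox4 and Sox9 in the last library (21.9, 20.6 and 19.5) are not shown to differ.

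The comparison of the genotypes in ESC asked what loss of huntingtin changes before differentiation. Of the 9 Sox genes past the expression limit, 2 were past the fold limit on the higher side in Htt-null ESC, where 3.93% of all genes were, and 1 on the lower side, where 2.64% were. Sox1 was 1.75-fold higher in Htt-null than in wild-type ESC (22.3 against 12.7 CPM, log2 ratio 0.81, 0.70 to 0.93), and Sox8 was 1.84-fold higher (0.84, 0.18 to 1.60) on 43 against 31 counts. Sox8 passed the expression limit only through RA-DIFF, so its call in ESC is a description and is not read against the share of all genes. Sox21 was 2.01-fold lower (3.20 against 6.45 CPM, log2 ratio −1.004, −1.24 to −0.78), and 171 of the 14417 genes had a lower ratio. The interval of Sox1 and that of Sox8 reach below the fold limit of 0.75, as the interval of Sox21 does not. Both higher calls were lost with a fold limit of 1, and all 3 calls under an exact test at the dispersion of 0.1 that the methods name. Sox11, at 29.3 CPM in the wild type and 19.3 in the null line, had a log2 ratio of −0.60 (−0.70 to −0.51), short of the limit, and Sox4 one of −0.38 (−0.45 to −0.31). Sox2 (−0.22), Sox3 (−0.14), Sox12 (−0.13) and Sox9 (−0.07) lay closer to 0, with an interval that crossed 0 for Sox3 and Sox9. All genes past the expression limit had a median of −0.04.

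Sox1 lies on chromosome 8, where the median over 767 genes past the expression limit was 0.36 in this comparison, against −0.06 for the genes of all other chromosomes, with 62 genes past the fold limit on the higher side and 5 on the lower. Sox1 stood 0.45 above that median, and 93.4% of the chromosome's genes had a lower ratio. Chromosome 11, which carries Sox9, had a median of 0.21, and the other 8 chromosomes of the set had medians between −0.12 and −0.05. The part of the chromosome 8 shift in the Sox1 value was not tested.

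**Figure D3:**
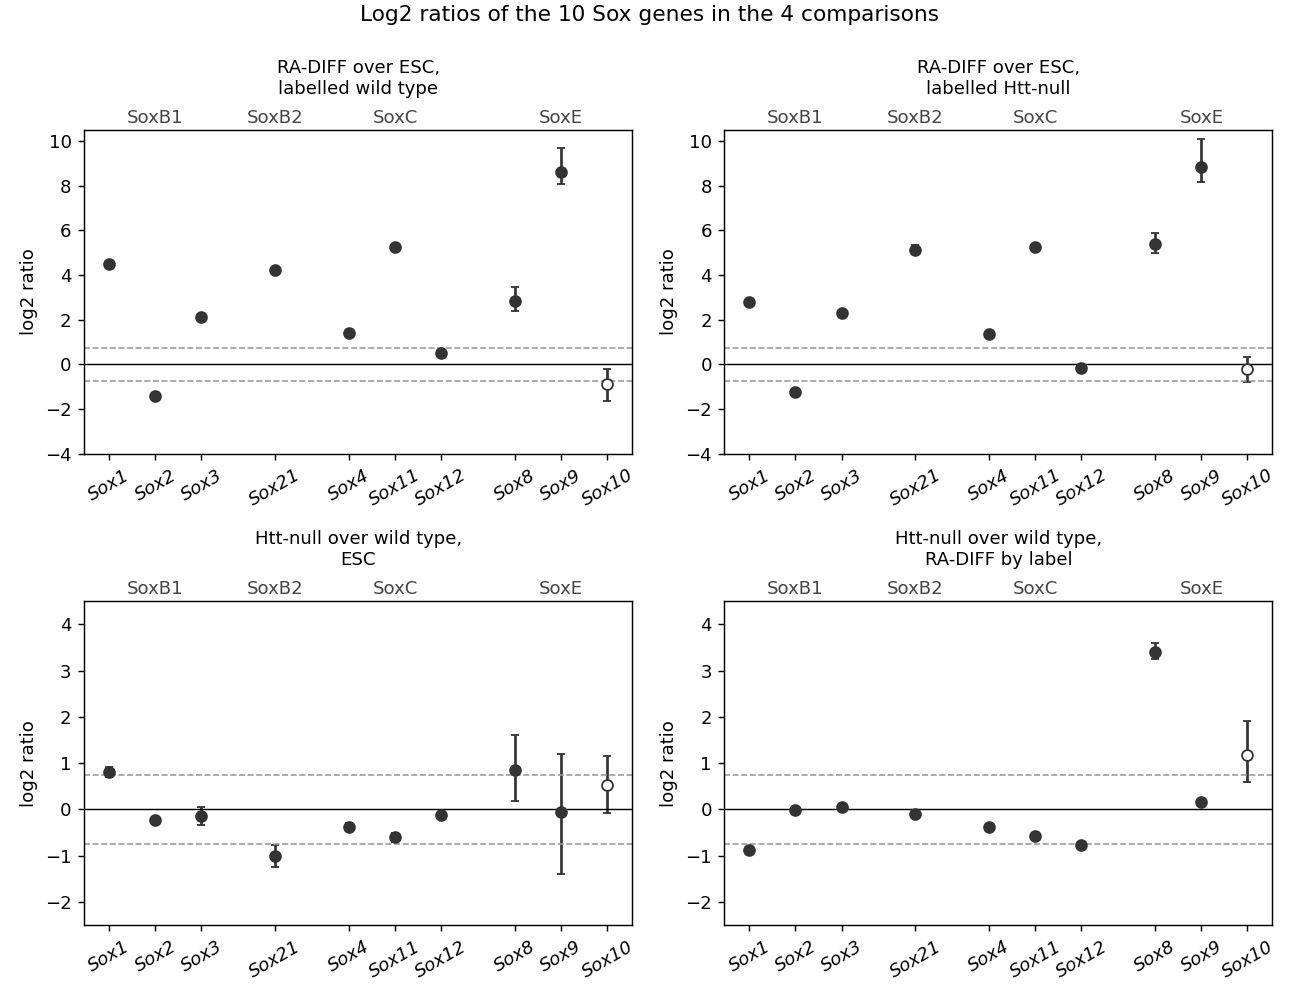
Log2 ratios of the 10 Sox genes in the 4 comparisons, 1 panel each, with counting intervals as bars, the fold limit of 0.75 in either direction as dashed lines, and an open symbol for Sox10, which did not pass the expression limit. The upper panels run from −1.44 (Sox2) to 8.84 (Sox9), and in the lower panels Sox8 in RA-DIFF by label (3.40) is the gene farthest from 0 while Sox1 lies at 0.81 in ESC and at −0.89 in RA-DIFF by label.

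Between the RA-DIFF libraries, the Sox gene that differed most was Sox8. By the labels, Htt-null cells had a 10.6-fold higher level than wild-type cells (28.5 against 2.68 CPM, log2 ratio 3.40, 3.24 to 3.59). It was the only member past the fold limit on the higher side, where 11.0% of all genes were, while 2 were past it on the lower side, where 7.37% were. Those were Sox1, 1.85-fold lower in the library labelled Htt-null (154 against 285 CPM, log2 ratio −0.89, −0.92 to −0.86), and Sox12, 1.72-fold lower (97.6 against 168 CPM, −0.78, −0.82 to −0.75). This last interval ends at −0.745 and so reaches inside the fold limit. Both lower calls were lost with a fold limit of 1 and under the exact test at a dispersion of 0.1. Sox11 had a log2 ratio of −0.57 (745 against 1109 CPM) and Sox4 one of −0.38 (98.8 against 129 CPM), so all 3 SoxC genes lay on the lower side, 1 of them past the limit. Sox9 (0.16), Sox3 (0.05), Sox2 (−0.01) and Sox21 (−0.11) differed little. Sox10, below the expression limit, had 62 against 30 counts and a log2 ratio of 1.17 (0.58 to 1.91). On exchange of the RA-DIFF labels each of these ratios takes the other sign, so that Sox8 would be 10.6-fold lower in Htt-null RA-DIFF and Sox1 and Sox12 higher. The chromosome 8 median was −0.22 in this comparison, against 0.004 elsewhere, and Sox1 lay farther down, at a distance from it of −0.66.

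**Figure D4:**
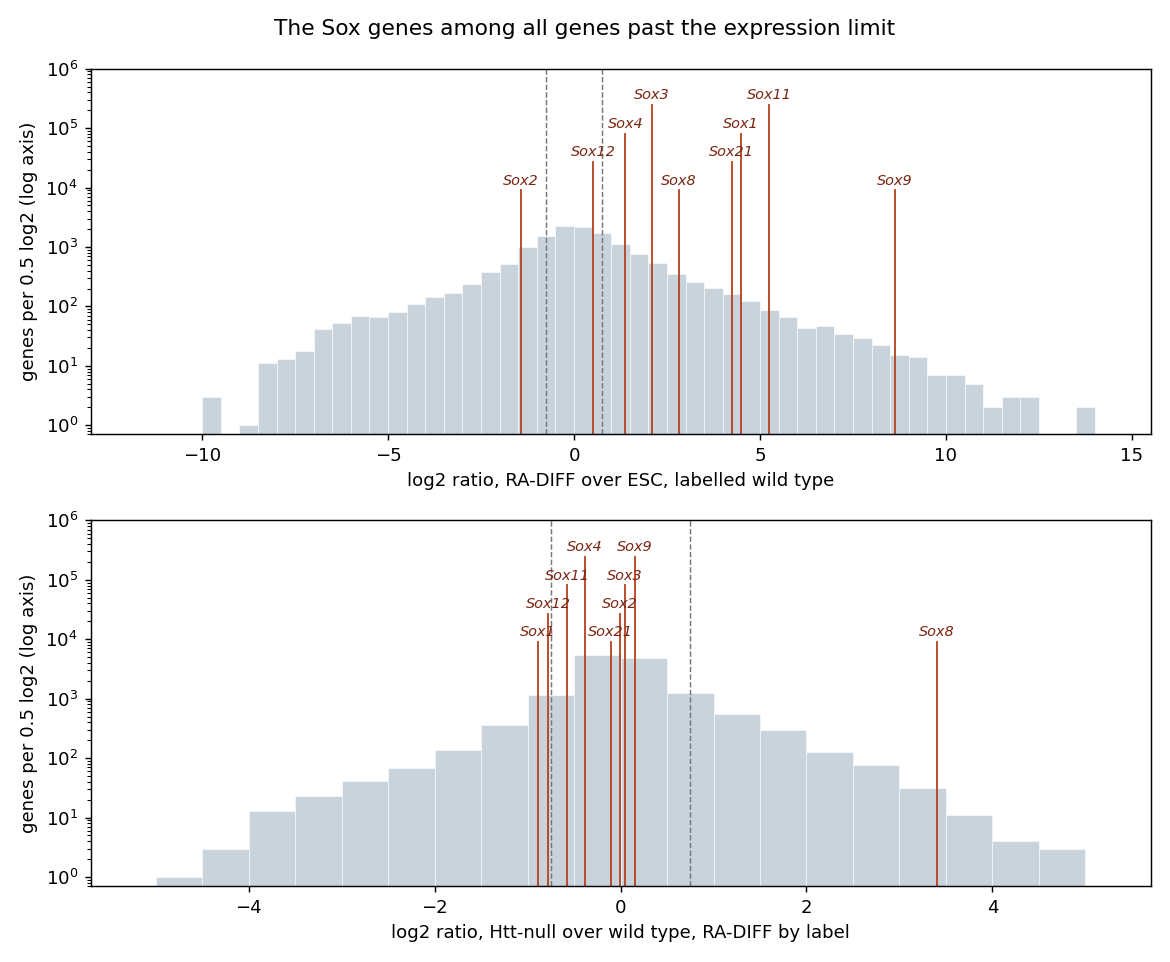
Distribution of the log2 ratios of the 14417 genes past the expression limit in bins of 0.5, with the number of genes on a log axis, for RA-DIFF over ESC labelled wild type and for the RA-DIFF libraries labelled Htt-null over wild type, with lines at the 9 Sox genes past that limit and dashed lines at the fold limit. In the upper panel the Sox genes run from −1.44 (Sox2) to 8.62 (Sox9), and in the lower panel 8 of them lie between −0.89 and 0.16 and Sox8 lies alone at 3.40.

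The SoxE balance differed accordingly between the RA-DIFF libraries. Sox8 held 4.66% of the SoxE level per length in the library labelled wild type and 31.7% in that labelled Htt-null, and Sox9 stood 20.4-fold and 2.13-fold above Sox8. Some genes of other lists were higher in the same library as Sox8, the one labelled Htt-null. Of 12 glial and neural crest genes past the expression limit, 3 were higher there and 3 lower (11.0% and 7.37% of all genes). The higher ones held Olig1 (2.55) and Olig2 (1.58) of the oligodendrocyte lineage. Olig2 passed that limit only through RA-DIFF, and its value was added after it was seen. Of 12 mesenchyme genes (collagens, smooth muscle genes and mesenchymal transcription factors), 11 passed the expression limit, and 10 of these were past the fold limit on the higher side in the library labelled Htt-null (11.0% of all genes). Their median log2 ratio was 1.78, against −0.01 for all genes. Acta2, the smooth muscle actin, was highest with 62554 against 4593 counts (3.95), and Pdgfrb lowest (0.57). The list summed to 2531 CPM under the label Htt-null and to 657 under the label wild type, against 29.4 and 45.8 in ESC, and no gene of the list was at 0 in RA-DIFF. In bulk RNA, a difference in the number of cells of a type and one in the transcripts per cell cannot be told apart. The part of other cell types in the Sox8 value was not tested.

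Partner and target genes set the Sox values in context, and were read as lists. Genes below 1 CPM in both ESC libraries passed the expression limit only through RA-DIFF, where they are high. They are named in each list, some of them after their values were seen, and counts that hold them are descriptions. The pluripotency genes that work with Sox2 left RA-DIFF almost entirely, which Sox2 did not. All 9 genes of that list were past the fold limit on the lower side in both pairs of libraries (24.9% and 23.5% of all genes), with median log2 ratios of −6.31 (labelled wild type) and −9.01 (labelled Htt-null) where Sox2 had −1.44 and −1.22, and all genes 0.11 and 0.16. Pou5f1, which encodes Oct4, had 65651 and 42853 counts in ESC and 1324 and 123 in RA-DIFF, and a log2 ratio of −6.00 in the pair labelled wild type. The ratio of Klf4 was nearest to 0 (−4.20) and that of Utf1 farthest from it (−8.23). Between the RA-DIFF libraries 8 of the 9 were past the limit on the lower side in the one labelled Htt-null (7.37% of all genes), from −3.74 for Fgf4 to 0.33 for Klf4. In ESC none of the 9 was past the limit, and their median was −0.09. Utf1, Fgf4 and Pou5f1 are known targets of Sox2 and Oct4, and Pou5f1 was named after its values were seen.

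Neural progenitor genes, a set of 11 that includes Nes, Pax6 and the POU factors which partner SoxB1 proteins in neural cells, had a median log2 ratio of 6.29 in the pair labelled wild type, with 11 of 11 past the fold limit on the higher side (32.4% of all genes). Of the 11, 4 (Fabp7, Hes5, Pou3f2 and Zic1) passed the expression limit only through RA-DIFF. The largest was Fabp7, a fatty acid binding protein of radial glia (13.92, from 4 to 118507 counts), and the smallest the POU factor Pou3f1 (0.78). With the label Htt-null, 10 were higher and 1 lower (32.9% and 23.5% of all genes), with a median of 5.11. Compared between the RA-DIFF libraries, 1 was higher and 5 were lower in the one labelled Htt-null (11.0% and 7.37% of all genes), from 0.80 for Prom1, a surface protein of progenitors, to −3.01 for Pou3f1, with a median of −0.65. In ESC 2 were higher and 1 lower (3.93% and 2.64% of all genes, median −0.16). The former were Nes, on 731 against 552 counts (log2 ratio 0.81), and Zic1, on 15 against 9 counts. The latter was Fabp7 with 1 against 4. Summed CPM of the list were 3616 and 3405 in RA-DIFF labelled wild type and Htt-null and 133 and 122 in ESC.

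Of 11 genes of neuronal differentiation, several of them targets of SoxC proteins such as Tubb3 and Dcx, 9 passed the expression limit. In the pair labelled wild type 7 of these were past the fold limit on the higher side (32.4% of all genes) and none on the lower, with a median of 4.05, from Dcx, the microtubule protein of young neurons (12.46), to Stmn2 (−0.07). With the label Htt-null, 7 were higher and 2 lower (32.9% and 23.5% of all genes, median 2.25). Dcx passed the expression limit only through RA-DIFF. Compared between the RA-DIFF libraries, 7 were past the limit on the lower side in the one labelled Htt-null and none on the higher (7.37% and 11.0% of all genes), with a median of −1.32, from Neurod1, a proneural factor (−1.96), to Tead2 (−0.16). The study, with another marker list, reports most of its changed neuron genes as higher in Htt-null RA-DIFF. By label, the order here was the reverse. The 11 listed genes summed to 3067 CPM in RA-DIFF labelled wild type and to 1539 in RA-DIFF labelled Htt-null, and the 3 SoxC genes to 1405 and 941. In ESC 2 were higher in the null line and none lower (3.93% and 2.64% of all genes, median 0.11). These were Tubb3, on 4420 against 2942 counts (log2 ratio 0.998), and Dcx, on 8 against 5 counts.

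Genes of astroglia and of glial and neural crest cells, where SoxE proteins act, gave a mixed picture. Of 8 astroglial genes, 6 passed the expression limit, all past the fold limit on the higher side in RA-DIFF (32.4% and 32.9% of all genes), with medians of 4.27 (labelled wild type) and 4.96 (labelled Htt-null). Of the 6, Nfia and Gfap passed the expression limit only through RA-DIFF. Nfia, a transcription factor of the switch to gliogenesis, was the largest (7.74) and Aldh1l1 the smallest (2.69) in the pair labelled wild type. Of the 6, 4 were higher and 1 lower in RA-DIFF labelled Htt-null than in the other RA-DIFF library, from Nfia (1.19) to Gfap, the astrocyte filament protein (−1.78), against 11.0% and 7.37% of all genes, and in ESC 1 was higher (3.93% of all genes), namely Nfia on 54 against 40 counts, and none lower. The study reports most of its changed astrocyte and oligodendrocyte genes as lower in Htt-null RA-DIFF. By label, most of the astroglial genes read here went the other way. Of 13 glial and neural crest genes 12 passed the expression limit, Ednrb and Olig2 only through RA-DIFF and Foxd3 only through ESC. In the pair labelled wild type 5 were higher and 3 lower in RA-DIFF, from Ednrb, the endothelin receptor of crest cells (10.71), to Foxd3 (−6.88), and in the pair labelled Htt-null 6 were higher and 3 lower. The share of all genes was 32.4% higher and 24.9% lower in the first pair and 32.9% and 23.5% in the second, so the counts of this list are not set apart from the background. In RA-DIFF labelled Htt-null 3 were higher and 3 lower than in the other library (11.0% and 7.37% of all genes), from Olig1 of the oligodendrocyte lineage (2.55) to Tfap2a of the neural crest (−1.90). Foxd3, among the lower, had 14 against 31 counts. In ESC 1 of the 12 was higher in the null line, namely Ednrb on 35 against 16 counts, and 1 was lower (3.93% and 2.64% of all genes).

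Of 10 cartilage genes, among them the Sox9 targets Col2a1 and Acan, 5 passed the expression limit, Acan only through ESC. In RA-DIFF, 3 were higher and 2 lower than in ESC in both pairs, from Col11a2 (4.42) to Acan, which encodes aggrecan (−6.35), in the pair labelled wild type. With 5 genes read, these counts are too few to set against the shares of all genes (32.4% and 24.9%, and 32.9% and 23.5%). Acan had 16 counts in each RA-DIFF library and 1168 and 975 in ESC, while Sox9 had log2 ratios of 8.62 and 8.84. Between the RA-DIFF libraries 2 of the 5 were higher in that labelled Htt-null, with Col2a1, the cartilage collagen, on top (1.06), and Col11a2 was lower (−1.30), where 11.0% and 7.37% of all genes were. None was past the fold limit in ESC.

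Mesenchyme, endothelium and endoderm were read as markers of other cells. The endothelial and endoderm lists, with 3 and 4 genes past the expression limit, are too short to read against the shares of all genes, which were 32.4% higher and 24.9% lower in RA-DIFF labelled wild type, 32.9% and 23.5% in RA-DIFF labelled Htt-null, 11.0% and 7.37% between the RA-DIFF libraries and 3.93% and 2.64% in ESC. All 11 mesenchyme genes past the expression limit were higher in RA-DIFF than in ESC in both pairs (32.4% and 32.9% of all genes), from Col3a1 (7.23) to Pdgfra (1.18) in the pair labelled wild type. Dcn and Postn passed the expression limit only through RA-DIFF. In ESC 7 were lower in the null line (2.64% of all genes) and none higher, and the 7 hold Dcn, on 0 against 10 counts, and Postn. Of 6 endothelial genes 3 passed the limit, with Kdr higher in RA-DIFF (4.27) and Pecam1 and Tek lower (Tek −5.76). Between the RA-DIFF libraries Kdr (2.00) and Tek were higher in that labelled Htt-null and Pecam1 lower (−1.35), and in ESC Kdr was higher in the null line. Of 7 endoderm genes 4 passed, Foxa2 only through RA-DIFF, with Foxa2, a factor of endoderm and floor plate, higher (2.47) and 2 lower, Cubn the lowest (−2.46), in the pair labelled wild type, and 1 higher and 3 lower in the other. Foxa2 was also higher in RA-DIFF labelled Htt-null than in the other library (2.69) and Gata4 the lowest (−0.12), and in ESC 1 of the 4 was lower in the null line. The endoderm list summed to 26.5 CPM in RA-DIFF labelled Htt-null and 12.7 in the other, and to 26.8 and 48.0 in Htt-null and wild-type ESC.

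**Figure D5:**
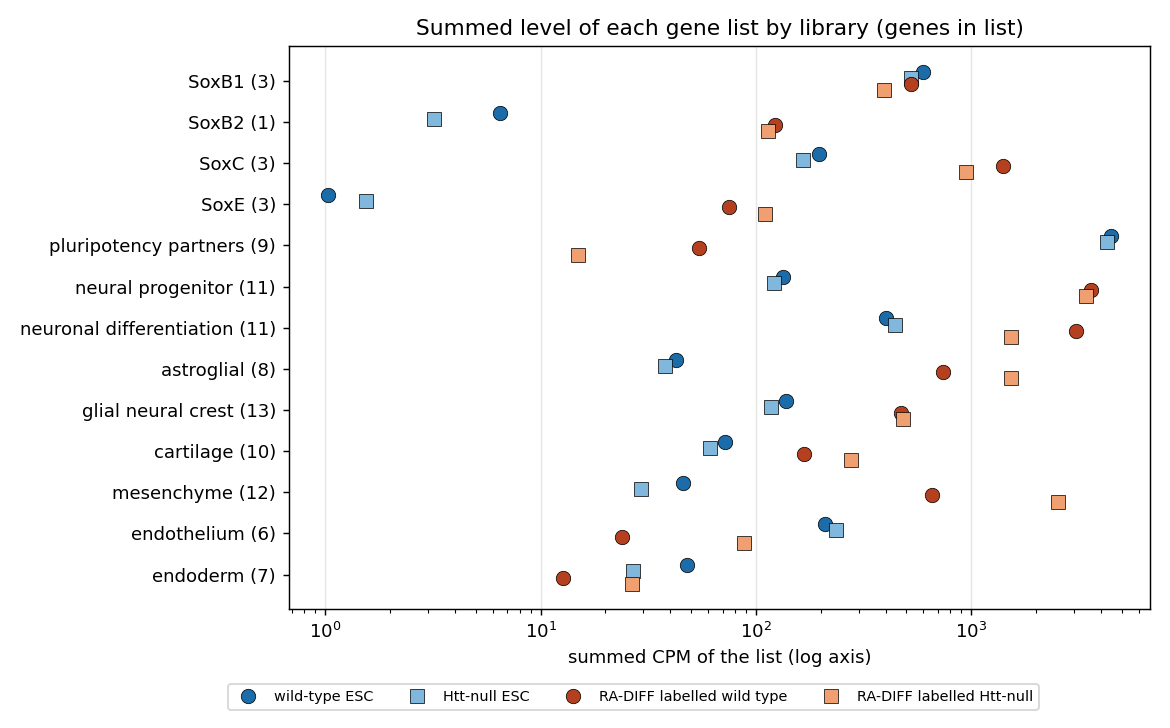
Summed TMM-scaled CPM of each gene list in the 4 RNA-seq libraries, on a log axis, with the number of listed genes in the table in brackets. Pluripotency partners go from 4477 and 4296 CPM in ESC to 54.3 and 14.9 in RA-DIFF, SoxC and SoxE sums lie higher in RA-DIFF, and the library labelled Htt-null stands above the other for mesenchyme (2531 against 657) and below it for neuronal differentiation (1539 against 3067).

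The remaining Sox genes of the table, 9 in number, were read to place the set within its family, and 6 passed the expression limit. Sox5 and Sox6, SoxD factors that cooperate with SoxE factors, were close to absent in ESC and abundant in RA-DIFF. Sox5 had 27 and 14 counts in ESC and 5347 and 7147 in RA-DIFF (log2 ratios 7.16 and 8.26), and Sox6 had 101 and 74 against 5999 and 4868 (5.50 and 5.42). Sox13, the third SoxD gene, went from 2811 and 2267 counts to 15688 and 6062 (2.11 and 0.82) and was lower in RA-DIFF labelled Htt-null than in the library labelled wild type (−1.19). Sox15, a gene of pluripotent cells, took the opposite course, with 1587 and 1082 counts in ESC and 88 and 38 in RA-DIFF (−4.50 and −5.35). Between the RA-DIFF libraries it was past the fold limit on the lower side in that labelled Htt-null (−0.98), as Sox13 was (7.37% of all genes). Sox14, the second SoxB2 gene, had no count in either ESC library, where a count of 0 allows up to 3 counts (0.0346 CPM in wild-type and 0.0460 in Htt-null ESC), and 618 and 51 in RA-DIFF labelled wild type and Htt-null, a log2 ratio of −3.36 between the RA-DIFF libraries. Its mean level was below the expression limit. The SoxF genes of endothelium and endoderm stayed low, with 148, 75, 118 and 218 counts for Sox7, 129, 89, 66 and 82 for Sox17 and 107, 80, 30 and 16 for Sox18 in wild-type ESC, Htt-null ESC, RA-DIFF labelled wild type and RA-DIFF labelled Htt-null. Sox7 was past the fold limit on the higher side in RA-DIFF over ESC labelled Htt-null (0.93, with 32.9% of all genes). It was also past it in RA-DIFF labelled Htt-null over the other RA-DIFF library (1.06, with 11.0%). Sox17 was on the lower side in RA-DIFF over ESC labelled wild type (−1.30, with 24.9%). Sox5 passed the expression limit only through RA-DIFF, and Sox15 and Sox17 only through ESC, so their calls are descriptions.

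The genes whose pattern over the 4 libraries was most like that of each Sox gene were found by the Euclidean distance between log2 CPM values centred on the gene's mean, over the 14417 genes past the expression limit. Over only 4 libraries many genes come close, so the distance is a description. Nearest to Sox1 were the sialyltransferase gene St8sia3 (0.19), the lincRNA AI504432 (0.25) and B930095G15Rik (0.28), with 32 genes within 0.5. Sox2 had 1111 genes within 0.5, led by Emc4 (0.02) and Prmt3 (0.02), and Sox3 had 504, led by Rcn2, Tmem179 and the Polycomb gene Bmi1 (0.03 to 0.05). Sox21 was followed by Ager, Slc2a12 and Gm37277 (0.17 to 0.27) among 19, and Sox11 by the synapsin gene Syn2 (0.21), Cpe (0.26) and Magee1 (0.29) among 25. For Sox4 the nearest of 715 were Fsd1l, the histone demethylase gene Kdm4b and Mamdc4 (0.04 to 0.09), and for Sox12 the nearest of 825 were Pgk1 of glycolysis, the transferrin receptor gene Tfrc and Gm38366 (0.08 to 0.10). Sox8 had no gene within 0.5, and its nearest were the guidance factor gene Ntn1 (0.70), Lgals1 (0.70) and Cybrd1 (0.70). Sox9 had 4, and its nearest were Igfbp5 (0.38), the neural lincRNA Rmst (0.43) and the protocadherin gene Dchs1 (0.44). Within the set, the closest pairs were Sox21 with Sox11 (0.71) and Sox3 with Sox4 (0.89), each across 2 Sox groups, and no pair from within a group was closer than Sox4 with Sox12 (1.24).

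Small RNA from the same 4 conditions was sequenced as well, and 3 miRNAs bear on the Sox genes. The study pairs miR-466i-5p and miR-574-5p with Sox1, and miR-124-3p is a known regulator of Sox9. The mature sequence of miR-574-5p is shown with its seed, bases 2 to 8, in capitals, since it is the more abundant of the pair linked to Sox1 (RefSeq, chr5:64970328-64970350, plus strand, GRCm38.p6).
miR-574-5p: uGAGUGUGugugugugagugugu
It had 307 counts in wild-type ESC, 195 in Htt-null ESC, 136 in RA-DIFF labelled wild type and 72 in RA-DIFF labelled Htt-null. TMM-scaled levels were 15.2, 8.87, 7.60 and 5.93 CPM. The log2 ratio was −0.77 in Htt-null over wild-type ESC (−0.55 with library size alone), −0.99 in RA-DIFF over ESC labelled wild type, −0.57 in the pair labelled Htt-null and −0.35 between the RA-DIFF libraries by label. With library size alone the last values were −2.15, −2.42 and −0.82, where the medians of all miRNAs were −1.14, −1.82 and −0.39. Whether the labels of the small RNA libraries from RA-DIFF are also open to doubt was not tested. miR-466i-5p was rare, with 43, 26, 14 and 9 counts in the same order, and its log2 ratio in ESC was −0.79 on these few counts. miR-124-3p had 1576, 1885, 2417 and 1844 counts. Its direction between the stages depended on the scaling, with a log2 ratio of 0.79 in the pair labelled wild type after TMM and −0.38 with library size alone, while the median of all miRNAs moved from −0.13 to −1.14 between these scalings. No direction is therefore drawn for miR-124-3p between ESC and RA-DIFF, and Sox9 is set beside it only as values. Values over 4 libraries with 1 per condition do not test a relation between a miRNA and a Sox gene.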

How the data were processed

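The authors aligned 50-base paired-end RNA-seq reads with TopHat2 2.0.14 to GRCm38 with GENCODE transcripts as a guide. Counts per gene were made with HTSeq 0.6.1, and the authors deposited these raw counts. For small RNA, the deposited counts are reads trimmed with cutadapt 1.3, mapped with BWA 0.7.5a-r418 and counted on mature miRNAs. Tool versions are from the submitters' processing notes. All 8 deposited columns were assigned to samples by name.

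Counts were scaled with TMM in edgeR 4.0.16 (R 4.3.3), and log2 CPM used a prior count of 2. With 1 library per condition no reported value rests on a test, and an edgeR exact test with set dispersions (0.1 and 0.01) and a p-value limit of 0.05 served only as an alternative for the calls. Calls used the fold limit (0.75) and expression limit (0) of the study's methods. Counts are given with Wilson intervals, and log2 ratios with exact conditional binomial (Clopper-Pearson) intervals, both at the 95% level. Exon lengths are unions from GENCODE vM21, and the 10 gene identifiers all matched. Promoters and the miRNA sequence are from RefSeq (GRCm38.p6).

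Named genes are the 10 members, other Sox genes with 100 counts in a library, Htt, the extremes of each list in the pair labelled wild type and between the RA-DIFF libraries, the 3 nearest genes of each member and 3 miRNAs, and any gene added later is marked. Some named items are not reported here. Members, lists and rules were chosen with earlier results of these data known. Alternatives were other scalings, prior counts, limits, set dispersions, lengths and exchanged RA-DIFF labels.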

Additional observations from a re-analysis of the deposited data

Results flagged for a closer look

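Sox1 was past the fold limit in opposite directions at the 2 stages. It was higher in Htt-null than in wild-type ESC (1453 against 1101 counts, log2 ratio 0.81) and, by the labels, lower in Htt-null than in wild-type RA-DIFF (15194 against 31981 counts, −0.89). The RA-DIFF ratio minus the ESC ratio was −1.70 on the log2 scale. This difference was not tested, since each condition has 1 library. With the RA-DIFF labels exchanged, Sox1 was higher in Htt-null cells at both stages (0.81 and 0.89). Both calls were lost with a fold limit of 1 and under the exact test at the dispersion of 0.1 that the methods name. The median of the chromosome 8 genes was 0.36 in ESC and −0.22 in RA-DIFF by label, on the higher side at both stages with the labels exchanged, and its part in the Sox1 values was not tested.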

How the results depend on the processing

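No paired analysis was possible because each comparison sets 1 library against 1 and the labels give no replicate numbers, and for the same reason no replicate could be left out. A fit of stage over both lines, with the lines taken as replicates, was not made. Library size alone moved the log2 ratios of the Sox genes by at most 0.07, DESeq2-type size factors by at most 0.05 and a prior count of 0.5 by at most 0.14, and the number of Sox genes past the fold limit kept its value in every comparison and direction under these 3 settings and under the exact test with an assumed dispersion of 0.01. With the dispersion printed in the methods, 0.1, the number became 0 of 1 on the lower side in RA-DIFF over ESC labelled Htt-null, 0 of 2 higher and 0 of 1 lower in Htt-null over wild-type ESC, and 0 of 2 lower between the RA-DIFF libraries. A fold limit of 1 left 0 of 2 higher in ESC and 0 of 2 lower between the RA-DIFF libraries. Without the expression limit Sox10 was added, giving 2 on the lower side in RA-DIFF over ESC labelled wild type and 2 on the higher side between the RA-DIFF libraries. Exchanging the RA-DIFF labels gave 2 higher (Sox1 and Sox12) and 1 lower (Sox8) between the RA-DIFF libraries, with log2 ratios of 0.89 for Sox1, 0.78 for Sox12, −3.40 for Sox8 and −1.17 for Sox10, and turned Sox10 in RA-DIFF over ESC labelled wild type to 0.30. The length of the longest transcript in place of the exon union put 0 members at another rank in every library. Over all genes, the counts on the higher and lower side of the fold limit were 4675 and 3585 (RA-DIFF over ESC labelled wild type), 4739 and 3383 (labelled Htt-null), 566 and 381 (ESC) and 1579 and 1062 (RA-DIFF by label). Without the expression limit they were 10162 and 8674, 9567 and 9945, 5217 and 2943, and 4204 and 4384, as more genes were read. With a dispersion of 0.1 they were 3128 and 2227, 3185 and 2020, 96 and 62, and 694 and 378, and with a fold limit of 1 the last pairs were 302 and 172 (ESC) and 1107 and 653 (RA-DIFF). Sox8, Sox9 and Sox10 in ESC rest on 10 to 48 counts, which limits their ratios.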
